A study of Mus musculus with 36 samples.

Results

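The 41 sarcomere and cardiac contraction genes described here were taken as a given list of gene symbols, matched to the Ensembl gene identifiers of the deposited count files, and followed through every group of the series. All 41 were found among 49671 gene identifiers. By role, 13 belong to the thin filament (troponins, tropomyosins, sarcomeric actins and nebulin), 10 to the thick filament (myosin chains and myosin-binding proteins), 11 to the Z disc, M band, titin scaffold and sarcomere assembly, and 5 to calcium handling. The other 2 are the natriuretic peptide genes.

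The cells were mouse pluripotent stem cells of embryonic origin with a Mesp1 transgene that responds to doxycycline (dox). They were differentiated in hanging drops of 1000 initial cells in serum, or kept in 2i medium, and polyadenylated RNA was sequenced in 36 libraries. Times are hours after the stage labelled d2-5. Batch 1 held 0 h, 12 h with dox, 12 h without dox, 24 h with dox and 24 h without dox, 2 libraries each, and batch 2 held 0 h (2 libraries), 24 h with dox (4) and 24 h without dox (2), all of wild-type genotype. Batch 3 held 24 h with dox in cells labelled Zic2_KO (2) and in wild type (2). At day 4, cells of wild-type genotype were sorted as Flk1+/Pdgfra+ (double positive, 5 libraries) or Flk1-/Pdgfra- (double negative, 3), or left unsorted (bulk, labelled Bulk_EBs, 2 libraries, with a tag ND that the labels do not explain). Cells kept in 2i medium, which holds embryonic stem cells in the naive pluripotent state, were sequenced with dox (2) and without dox (2), all labelled 24 h. The same inducible Mesp1 is carried by all 15 groups, no library with dox lacks the transgene, and whether the day 4 cells had dox is not labelled. Separate cultures are not named for the replicates, and p-values then cover only the spread between libraries, which may be technical.

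The sarcomere is the contractile unit of striated muscle. Myosin thick filaments pull on actin thin filaments, troponin and tropomyosin on the thin filament make this pull depend on calcium, and titin, alpha-actinin and the M-band proteins hold the lattice together. Each part is encoded by small families whose members are used at different stages: in the mouse heart, Tnni1 (slow skeletal troponin I) precedes Tnni3 (cardiac troponin I), and the early heart tube makes smooth and skeletal muscle actins beside cardiac actin. Mesp1, a basic helix-loop-helix factor of nascent mesoderm, marks the progenitors of most heart muscle before any of them contracts.

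In the CPM scale used here (counts divided by the gene total of the library, times 1000000) Mesp1 was at 42.9 to 543.5 CPM in the 24 h dox libraries of batches 1 and 2, against 0.808 to 45.3 CPM in those without dox. Kdr, which encodes Flk1, was at 735.2 to 1260 CPM in double positive and 2.84 to 6.57 CPM in double negative libraries. Zic2 was at 73.0 and 56.4 CPM in the libraries labelled Zic2_KO, against 108.4 and 74.7 CPM in wild type, so RNA of the targeted gene was present in both; which part was deleted is not given in the labels. In no library did Nkx2-5 exceed 1.14 CPM, Tbx5 1.94 CPM or Myog 0.291 CPM, the first pair being cardiac factors and the other a skeletal muscle factor. The smallest gene total was 12126604 counts and the largest 51940589 counts, and a single count equalled between 0.0193 and 0.0825 CPM. Of all libraries, batch 2 0 h replicate 2 stood apart for Ttn, Ryr2 and Neb, and batch 2 24 h dox replicate 1 for Tnni1 and Fhod3; both are named again beside the results they touch.

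Promoter sequences of 34 of the 41 genes were found in RefSeq (GRCm38.p6, 250 bases before to 50 after the annotated start), those of Actn3, Atp2a2, Fhod3, Myom2, Neb, Tnni2 and Tnnt3 being the ones unmatched. Basic helix-loop-helix factors bind E-boxes, and the serum response factor, with its partner myocardin, binds CArG boxes in muscle promoters. The first pair of sequences belongs to the genes with the largest log2 fold changes after dox at 24 h, and shows in capitals each E-box (CANNTG, the same on both strands).

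Myl1: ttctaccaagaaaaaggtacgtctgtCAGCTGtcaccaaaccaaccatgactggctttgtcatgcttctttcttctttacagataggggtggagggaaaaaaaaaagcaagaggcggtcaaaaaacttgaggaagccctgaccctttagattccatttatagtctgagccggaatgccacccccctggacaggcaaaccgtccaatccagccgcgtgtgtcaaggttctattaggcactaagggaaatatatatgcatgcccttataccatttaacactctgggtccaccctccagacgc
Tnni1: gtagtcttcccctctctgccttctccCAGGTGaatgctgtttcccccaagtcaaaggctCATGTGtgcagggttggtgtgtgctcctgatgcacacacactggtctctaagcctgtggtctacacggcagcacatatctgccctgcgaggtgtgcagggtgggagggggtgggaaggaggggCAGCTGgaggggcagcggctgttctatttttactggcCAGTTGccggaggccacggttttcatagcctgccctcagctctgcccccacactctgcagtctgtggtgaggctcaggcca

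The Myl1 window is chr1:66945007-66945306 on the minus strand, with 1 E-box whose first base lies at -224 from the start. The Tnni1 window is chr1:135799171-135799470 on the plus strand, with 4 E-boxes at -224, -191, -68 and -31; it is the listed one of 2 Tnni1 promoters. An E-box was found in 40 of the 45 promoters of the 34 matched genes (88.9%), and in 72.3% of all 32851 promoters of this length, so most promoters hold this motif. The next 3 sequences are those of both sarcomeric actins and of the atrial light chain Myl7, with the CArG box in capitals; they were chosen after the matches were seen.

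Actc1: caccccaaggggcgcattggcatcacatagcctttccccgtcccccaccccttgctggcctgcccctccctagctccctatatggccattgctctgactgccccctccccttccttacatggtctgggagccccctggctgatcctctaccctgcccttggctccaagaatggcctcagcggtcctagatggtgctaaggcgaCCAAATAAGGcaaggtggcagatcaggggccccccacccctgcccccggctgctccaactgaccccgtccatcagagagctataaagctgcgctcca
Acta1: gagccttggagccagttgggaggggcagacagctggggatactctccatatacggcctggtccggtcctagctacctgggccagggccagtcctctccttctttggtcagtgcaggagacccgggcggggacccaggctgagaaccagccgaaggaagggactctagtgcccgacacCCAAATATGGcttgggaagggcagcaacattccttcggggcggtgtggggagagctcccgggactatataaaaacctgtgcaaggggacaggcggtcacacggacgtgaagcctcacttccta
Myl7: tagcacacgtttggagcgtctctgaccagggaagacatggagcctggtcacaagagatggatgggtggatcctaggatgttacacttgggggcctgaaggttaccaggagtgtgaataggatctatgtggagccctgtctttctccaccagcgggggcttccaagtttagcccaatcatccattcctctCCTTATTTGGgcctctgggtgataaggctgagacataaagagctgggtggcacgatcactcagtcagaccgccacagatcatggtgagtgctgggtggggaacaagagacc

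All 3 lie on the minus strand, at chr2:114052826-114053125 (Actc1), chr8:123894726-123895025 (Acta1) and chr11:5898733-5899032 (Myl7). Their CArG boxes begin at -47, -73 and -61 from the start. A CArG box was found in 8 of the 45 promoters (17.8%), those of Acta1, Actc1, Ldb3, Myl3, Myl7, Myom1 and Nebl, and in 1.63% of all promoters. A MEF2 site was found in 2 of the 45 (4.44%), of Mybpc3 and Ttn, and in 0.557% of all promoters, and GATAA on either strand in 13 of the 45 (28.9%) and in 25.4% of all promoters. These matches describe the letters of the windows and show no binding.

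Most of the 41 genes were at low levels in most groups. Of the 41, 20 exceeded 10 CPM in at least 1 library, 5 stayed under 1 CPM in every library, and 2 were above 10 CPM in every library. These were Tpm1, tropomyosin, whose non-muscle isoforms are made by most cells, and Atp2a2, the SERCA2 calcium pump, which also serves the endoplasmic reticulum of non-muscle cells. Per length, as mean TPM (counts per base of merged exon, scaled to the same sum in each library), Atp2a2 or Tpm1 led in every group. Myl7 was second in double positive cells, at 207.6 TPM, after Atp2a2 at 217.4 TPM. Tnnc1, cardiac and slow troponin C, was among the leading 3 in double negative cells, at 32.4 TPM.

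**Figure D1:**
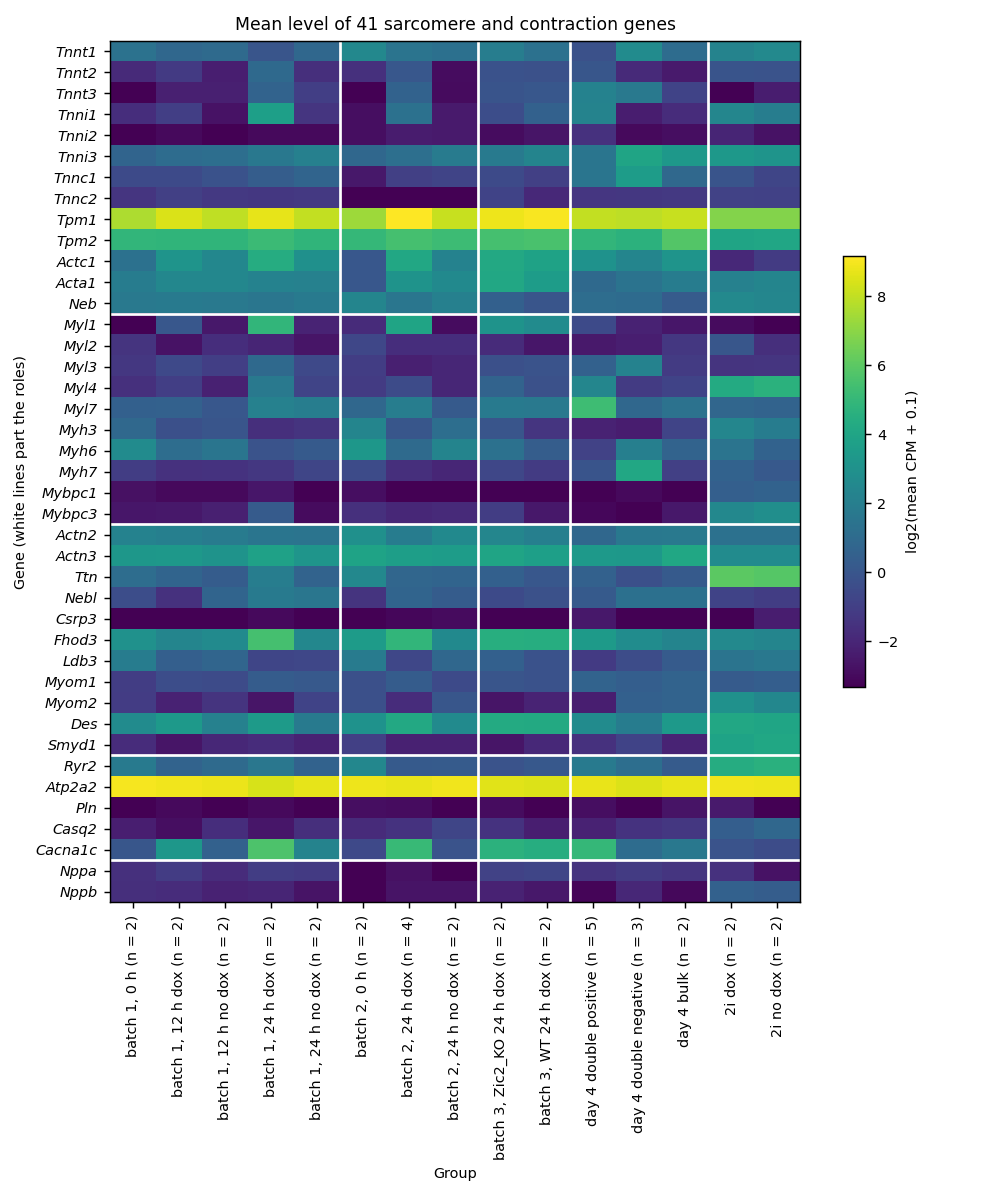
Mean level of each of the 41 genes (rows, by role) in each of the 15 groups (columns, with the number of libraries), as log2 of the mean CPM plus 0.1. Tpm1 and Atp2a2 are bright throughout, Myl1, Tnni1, Fhod3 and Cacna1c are brighter at 24 h with dox, Myl7 in double positive cells, Myh7 in double negative cells, and Ttn, Ryr2 and Smyd1 in 2i.

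Tnni2, Csrp3, Pln and Nppa passed the filter on low counts in none of the 10 comparisons made here, 29 genes were called in at least 1 comparison, and 8 were tested and never called. Nppa, the atrial natriuretic peptide, had at most 0.579 CPM in any library, and 61.5% of its exon bases are shared with an antisense gene. Pln, phospholamban, the brake on SERCA2, had at most 0.139 CPM and shares 64.7% with Cep85l. Strand use is not stated, so such counts cannot be assigned to either gene. The same holds for Tnnc2, fast troponin C, which shares 74.0% with Ube2c and had 0 counts in all batch 2 libraries, against 96 counts in batch 1, and to a lesser degree for Myh7, which shares 13.3%.

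The question of the next comparison was what a day of Mesp1 induction does to these genes. At 24 h, 11 of the 31 genes tested were called, meaning an adjusted p below 0.05 (30.0% of all 18592 genes tested were). Of these, 10 rose with dox (15.4% of all genes) and 1 fell (14.6% of all genes). Over the 31 tested, the median log2 fold change was 0.48, beside 0.02 over all genes. The 10 were 5 thin filament genes (Tnnt2, Tnnt3, Tnni1, Tpm1, Actc1), 2 myosin light chain genes (Myl1, Myl4), Fhod3, Des and Cacna1c, and the gene that fell was Myom2. For the other 20 genes, a p that misses the threshold does not show equal levels. In whole-culture RNA, fewer cells of a type and less RNA per cell cannot be told apart.

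Myl1, a myosin essential light chain best known from fast skeletal muscle and used in the early embryonic heart, had the largest change. It was at 34.4 and 24.3 CPM with dox in batch 1, against 0.218 and 0.0595 CPM without dox. In batch 2 it was at 36.2, 4.61, 8.91 and 11.7 CPM with dox, against 0 and 0.0627 CPM without dox. Every dox library was above every library without dox, while the dox libraries of batch 2 themselves ranged widely. The log2 fold change over both batches was 7.63 ± 0.77 (SE; edgeR adjusted p = 9.14e-07), and 8.73 without the batch 1 24 h library replicate 1 without dox. The other essential light chain that rose, Myl4, of the embryonic and atrial heart, was at 3.83 and 2.6 CPM with dox in batch 1, against 0.338 and 0.654 CPM without dox. In batch 2 it was at 0.513 to 0.696 CPM with dox, against 0.115 and 0.188 CPM without dox. Within each batch the groups did not overlap, although the batch 2 dox values lay around those of batch 1 without dox, and the log2 fold change was 2.39 ± 0.44 (edgeR adjusted p = 0.000395).

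Among the thin filament genes, Tnni1 was at 16.0 and 10.1 CPM with dox in batch 1, against 0.435 and 0.119 CPM without dox. In batch 2 it was at 7.56, 0.405, 0.696 and 0.972 CPM with dox, against 0.173 and 0 CPM without dox. The lowest batch 2 dox library was below a batch 1 library without dox, but within each batch every dox library was higher. The log2 fold change was 5.19 ± 0.84 (edgeR adjusted p = 0.000136), 5.33 in batch 1 alone (edgeR adjusted p = 0.000142) and 4.64 in batch 2 alone (edgeR adjusted p = 0.083), and 4.89 without batch 2 24 h dox replicate 1. In that library Mesp1 was at 543.5 CPM and Myocd, the gene of myocardin, at 66.9 CPM, against 42.9 to 209.2 CPM and 6.15 to 16.5 CPM in the other 3 dox libraries of batch 2; the part of either in the result was not tested.

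Tnnt2, cardiac troponin T, reached 2.66 and 0.974 CPM with dox in batch 1, against 0.266 and 0.178 CPM without dox. Its batch 2 values were 0.880, 0.324, 1.18 and 1.37 CPM with dox, against 0 and 0.0627 CPM without dox. This gene so often used to mark heart muscle did not overlap between the groups and stayed under 3 CPM, with a log2 fold change of 3.31 ± 0.52 (edgeR adjusted p = 9.36e-05). Tnnt3, fast skeletal troponin T, averaged 1.42 ± 0.39 CPM with dox (SD, n = 6) and 0.216 ± 0.233 CPM without dox (n = 4). Its log2 fold change was 2.77 ± 0.52 (edgeR adjusted p = 0.000934), and 3.54 without batch 1 24 h replicate 1 without dox.

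Actc1, cardiac alpha-actin, whose promoter is printed above, was at 23.5 and 19.5 CPM with dox in batch 1, against 9.31 and 5.89 CPM without dox. In batch 2 it was at 14, 19.0, 15.6 and 23.3 CPM with dox, against 4.39 and 4.83 CPM without dox. All 6 dox libraries were above all 4 others, at a log2 fold change of 1.81 ± 0.20 (edgeR adjusted p = 3.11e-06). Tpm1 averaged 523.2 ± 85.8 CPM with dox and 271.7 ± 22.8 CPM without dox (SD, n = 6 and 4), and rose by 0.94 on the log2 scale. Acta1, skeletal alpha-actin, which also has a CArG box, averaged 7.20 ± 5.06 CPM with dox and 5.2 ± 1.05 CPM without dox (SD, n = 6 and 4), with overlapping groups and a log2 fold change of 0.48 ± 0.50 (edgeR adjusted p = 0.538).

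Of the scaffold and assembly genes, Fhod3, a formin that assembles cardiac actin filaments, was at 38.7 and 49.5 CPM with dox in batch 1, against 5.12 and 5.71 CPM without dox. In batch 2 it was at 47.1, 23.1, 26.1 and 22.6 CPM with dox, against 6.64 and 5.33 CPM without dox. The lowest dox library was at 22.6 CPM and the highest without dox at 6.64 CPM, and the log2 fold change of 2.62 ± 0.26 had the lowest adjusted p of the 31 genes (edgeR, 7.84e-07). Des, the muscle intermediate filament desmin, averaged 15.8 ± 5.75 CPM with dox and 4.85 ± 1.59 CPM without dox, at a log2 fold change of 1.62 ± 0.20 (edgeR adjusted p = 8.61e-06). Myom2, an M-band myomesin of adult fast muscle and heart, went the other way: 14 counts in the 6 dox libraries, 0.0451 to 0.293 CPM, against 60 counts and 0.357 to 1.00 CPM in the 4 without dox. The groups did not overlap, and the log2 fold change was -2.45 ± 0.38 (edgeR adjusted p = 9.13e-05).

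Of the calcium genes, Cacna1c, the pore subunit of the cardiac L-type calcium channel, was at 44.2 and 58.2 CPM with dox in batch 1, against 4.79 and 4.52 CPM without dox. In batch 2 it was at 55.8, 23.1, 29.5 and 26.7 CPM with dox, against 0.635 and 1.00 CPM without dox. The lowest dox library, at 23.1 CPM, did not come near the highest without dox, at 4.79 CPM, and the log2 fold change was 4.25 ± 0.43 (edgeR adjusted p = 9.95e-07). Ryr2, the cardiac calcium release channel, averaged 1.70 ± 1.03 CPM with dox and 1.26 ± 0.34 CPM without dox, and its log2 fold change of 0.48 ± 0.44 was not called (edgeR adjusted p = 0.471). Neither was that of Atp2a2, at -0.19 ± 0.11 (edgeR adjusted p = 0.219), with 395.3 ± 63.9 CPM with dox and 447 ± 44.2 CPM without dox.

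Over both batches, the cardiac myosin heavy chains and titin were not called. Ttn, titin, had a log2 fold change of 0.67 ± 0.54, Myh6, alpha myosin heavy chain, of -0.97 ± 0.39, and Myh7, beta myosin heavy chain, of -0.37 ± 0.61 (edgeR adjusted p = 0.405, 0.0736 and 0.713). Myl7 averaged 3.97 ± 1.49 CPM with dox and 2.46 ± 1.67 CPM without dox, at 0.88 ± 0.37 (edgeR adjusted p = 0.0909). Its log2 fold change was 1.82 in batch 2 alone (edgeR adjusted p = 0.0164) and 0.19 in batch 1 alone (edgeR adjusted p = 0.796). In batch 1 alone, Ttn (1.309), Ryr2 (1.065), Myl3 (1.609) and Mybpc3 (5.561) were called higher and Tnnt1 (-1.005) lower, at edgeR adjusted p from 0.00611 to 0.044. In batch 2 alone, Ttn (0.115), Ryr2 (-0.058) and Tnnt1 (0.214) were not called, and Myl3 and Mybpc3 did not pass the filter on low counts. Ldb3 was called lower there (-1.656, edgeR adjusted p = 0.0279). The difference between the dox effects of batch 2 and batch 1 was called by edgeR for 0 of 31 genes (0.629% of all genes, 0.554% higher in batch 2 and 0.0753% lower), with 8 of them at an unadjusted p below 0.05 and 0 called by DESeq2. Within each batch the groups did not overlap for 12 genes, 10 higher (13.7% of all genes) and 2 lower (14.3% of all genes), which were the 11 called and Atp2a2.

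Markers of other cells moved with dox as well. In batch 1, a list of 9 pluripotency genes summed to 246.5 to 266.8 CPM with dox, against 861.4 to 982.3 CPM without dox, and a list of 8 endoderm genes to 129.1 to 137.9 CPM with dox, against 433.1 to 451 CPM without dox. In batch 2 the pluripotency sums were 165.1 to 364.6 CPM with dox, against 943.7 to 947.9 CPM without dox, and the endoderm sums 89.97 to 157.9 CPM with dox, against 174.6 to 178.8 CPM without dox. All 9 and all 8 genes had counts in each of these groups. Of the pluripotency genes 1 was called higher and 5 lower, and of the endoderm genes 1 higher and 4 lower. The endoderm gene called higher was Cxcr4, at a mean of 98.1 CPM with dox and 24.6 CPM without dox. A list of 11 smooth muscle genes summed to 515.3 to 589.2 CPM with dox in batch 1, against 241.7 to 281.2 CPM without dox, and to 274.1 to 466.2 CPM with dox in batch 2, against 174.3 to 180.1 CPM without dox, with 2 of 10 tested genes called higher and 1 lower. A list of 8 neuroectoderm genes summed to 135.9 to 138.4 CPM with dox in batch 1, against 445.6 to 477.5 CPM without dox, and to 135.2 to 248.9 CPM with dox in batch 2, against 436.3 to 466.2 CPM without dox. Of the 6 tested, 1 was called higher (Pax6) and 4 lower. Of 13 endothelial genes, 11 were tested, and 6 rose and 0 fell with dox. Their sums overlapped in batch 1, at 188.6 to 205.4 CPM with dox, against 162.6 to 194.5 CPM without dox. In batch 2 they were 196.1 to 314.5 CPM with dox, against 85.6 to 88.2 CPM without dox. The part of these in the changes above was not tested.

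**Figure D2:**
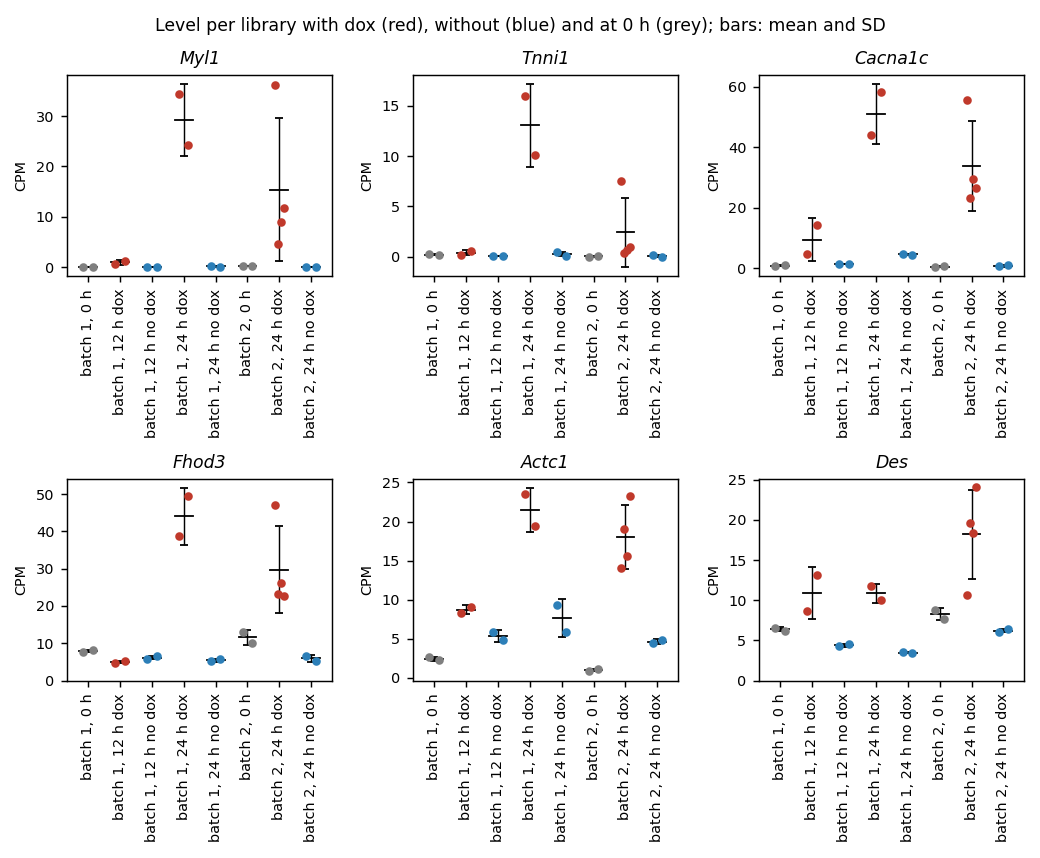
Level in CPM (vertical axis) of 6 genes in each library of batches 1 and 2 (points), by time and dox (horizontal axis), with the group mean and SD (black). At 24 h the dox libraries lie above those without dox of the same batch in each panel, whereas at 12 h, measured in batch 1 alone, Cacna1c and Des are the 2 of the 6 that were called.

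Other sarcomere and contraction genes were looked at through a list of 51 that are not among the 41. Of 28 tested, 11 rose and 6 fell with dox at 24 h, with a median log2 fold change of 0.56 over the 28. Popdc2, a heart membrane protein, rose (2.76) and Trim63, a muscle ubiquitin ligase, fell (-1.79), both under 1 CPM. In a list of 19 cardiac transcription factors, 12 of 17 tested rose and 1 fell, led by Myocd at 33.5 ± 25.3 CPM with dox and 0.286 ± 0.069 CPM without dox.

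At 12 h, measured in batch 1 alone, 3 of 31 genes were called (5.66% of all genes). Of these, 2 rose (3.29% of all genes) and 1 fell (2.37% of all genes). Over the 31 tested, the median log2 fold change was 0.14, beside 0.02 over all genes. Cacna1c was at 4.60 and 14.5 CPM with dox, against 1.38 and 1.35 CPM without dox, at a log2 fold change of 2.82 ± 0.60 (edgeR adjusted p = 0.00747). Des was at 8.60 and 13.2 CPM with dox, against 4.26 and 4.5 CPM without dox, at 1.34 ± 0.29 (edgeR adjusted p = 0.00997). Nebl, nebulette, a Z-disc relative of nebulin in heart, was at 0.288 and 0.191 CPM with dox, against 1.68 and 1.35 CPM without dox, at -2.57 ± 0.50 (edgeR adjusted p = 0.0040). The groups did not overlap for any of the 3. With 2 libraries each, the same was true of 9 of the 31 genes upward (19.4% of all genes) and 5 downward (21.6% of all genes). Without 12 h dox replicate 2, none of the 3 was called (Cacna1c 1.75, Des 0.97 and Nebl -2.38, edgeR adjusted p = 0.167, 0.182 and 0.0579), and Cacna1c and Des were also lost when either library without dox was left out (edgeR adjusted p from 0.0703 to 0.133). Without 12 h dox replicate 1 the value of Cacna1c was 3.48.

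Of the genes that changed most at 24 h, Myl1 was at 0.601 and 1.29 CPM with dox, against 0.0645 and 0.09 CPM without dox, and was not called (3.57 ± 1.20, edgeR adjusted p = 0.110). Fhod3 was at 4.71 and 5.25 CPM with dox, against 5.87 and 6.48 CPM without dox. When the dox effect at 24 h was tested against that at 12 h, 2 of 31 genes were called (0.522% of all genes), namely Fhod3 (difference of log2 fold changes 2.91 ± 0.45, edgeR adjusted p = 0.0186) and Nebl (2.91 ± 0.58, edgeR adjusted p = 0.0342), both with the higher value at 24 h (0.194% of all genes). Fhod3 was not called without 12 h dox replicate 1 or either 12 h library without dox (2.77, 3.01 and 2.80, edgeR adjusted p from 0.084 to 0.12). Nebl was not called without any one of 10 libraries, namely the 8 at 12 h and 24 h of batch 1 and both of batch 2 at 24 h without dox (2.72 to 3.21, edgeR adjusted p from 0.0546 to 0.209).

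Without dox, 15 of 31 genes were called at 24 h against 0 h (25.1% of all genes), of which 7 rose (13.5% of all genes) and 8 fell (11.7% of all genes). Over the 31 tested, the median log2 fold change was -0.14, beside 0.01 over all genes. Actc1 rose in every alternative tried: it was at 9.31 and 5.89 CPM at 24 h in batch 1, against 2.57 and 2.24 CPM at 0 h, and at 4.39 and 4.83 CPM in batch 2, against 0.836 and 1.08 CPM at 0 h. All 4 libraries at 24 h were above the 4 at 0 h, at a log2 fold change of 1.79 ± 0.24 (edgeR adjusted p = 7.1e-05). Within each batch, 5 of the 31 genes had every 24 h library above every 0 h library (20.6% of all genes) and 8 had every one below (13.0% of all genes). Nebl (2.01 ± 0.36, edgeR adjusted p = 0.00082), Tnni3, Tnnc1, Tpm1 and Cacna1c also rose. Tnnt3, also called higher, had 21 and 5 counts at 24 h in batch 1 and 1 and 0 counts at 24 h in batch 2, against 0 counts in all 4 libraries at 0 h, so that most of its counts came from 1 library.

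The genes that fell without dox were Myh3, Myh6, Ldb3, Ryr2, Tnnt1, Fhod3, Des and Actn2. Myh6 was at 0.725 and 1.43 CPM at 24 h in batch 1, against 6.49 and 6.40 CPM at 0 h, and at 5.19 and 4.70 CPM in batch 2, against 7.45 and 12.2 CPM at 0 h. The groups did not overlap within a batch (-1.81 ± 0.42, edgeR adjusted p = 0.00484), and in batch 2 alone the value was -1.04 (edgeR adjusted p = 0.337). Ldb3, the Z-disc protein cypher, averaged 1.12 ± 0.70 CPM at 24 h and 3.66 ± 0.84 CPM at 0 h (-1.9 ± 0.38, edgeR adjusted p = 0.00195). Ryr2 averaged 1.26 ± 0.34 CPM at 24 h and 4.31 ± 3.06 CPM at 0 h, and its log2 fold change of -1.9 was -1.04 without batch 2 0 h replicate 2, where Ttn, Ryr2 and Neb were at 10.04, 8.80 and 8.42 CPM. In batch 2 alone, 2 genes were called rather than 15, and without a batch term 7 were. Fewer of the 31 passed the filter on low counts in batch 2 alone, and Tnnc1, called over both batches, was not tested there. Mesp1 was at 41.5 and 45.3 CPM in batch 1 at 24 h without dox and at 0.808 and 1.5 CPM in batch 2; its part in the difference was not tested. Single libraries decided 5 calls, which were lost at edgeR adjusted p from 0.0503 to 0.114. The call of Tnnt1 was lost without either 24 h library or 0 h replicate 2 of batch 2, and those of Des and Cacna1c without any one of the 4 batch 1 libraries. That of Actn2 was lost without 0 h replicate 2 or either 24 h library of batch 1, or without either 0 h library or 24 h replicate 2 of batch 2. That of Fhod3 was lost without the same libraries as Actn2 other than batch 1 0 h replicate 2.

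Markers of other cells moved with time as well. A list of 9 early mesoderm genes summed to 1482 to 1487 CPM at 24 h without dox in batch 1, against 90.5 to 103 CPM at 0 h, and to 818.8 to 1079 CPM at 24 h in batch 2, against 34.1 to 44.8 CPM at 0 h, and all 9 were called higher. The endoderm sums were 433.1 to 451 CPM at 24 h in batch 1, against 26.1 to 26.2 CPM at 0 h, and 174.6 to 178.8 CPM at 24 h in batch 2, against 9.73 to 17.3 CPM at 0 h, with 6 of 8 genes called higher. Their part in the changes of the 31 genes was not tested.

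Set against 0 h, 24 of 31 genes were called at 24 h with dox (52.7% of all genes), of which 16 rose (27.4% of all genes) and 8 fell (25.3% of all genes). Over the 31 tested, the median log2 fold change was 0.90, beside 0.01 over all genes. This comparison shares its dox libraries with the one at 24 h and its 0 h libraries with the one without dox. Actc1 averaged 19.1 ± 3.9 CPM at 24 h with dox and 1.68 ± 0.85 CPM at 0 h (3.60 ± 0.23, edgeR adjusted p = 4.47e-09). Tnnt3 had 181 counts at 24 h with dox and 0 at 0 h, at least 34.2-fold higher when 0 h is set to a floor of 3 counts over the group. Cacna1c (5.94 ± 0.50), Myl1 (7.98 ± 0.84), Tnni1 (5.81 ± 0.94), Tnnt2 (2.71 ± 0.52), Myl4 (2.36 ± 0.47), Nebl, Fhod3 (1.78 ± 0.25), Acta1, Tpm1, Myl7 (1.40 ± 0.38), Tnnc1, Myom1, Des and Tpm2 rose as well. Within each batch, 15 of the 31 genes had every 24 h dox library above every 0 h library (22.0% of all genes) and 7 every one below (17.3% of all genes). Without batch 2 0 h replicate 1 the value of Myl1 was 9.08, and without batch 1 0 h replicate 2 it was 7.32.

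Relative to 0 h, Fhod3 and Des were lower at 24 h without dox and higher at 24 h with dox. Fhod3 averaged 34.5 ± 12.2 CPM at 24 h with dox, 5.70 ± 0.67 CPM at 24 h without dox and 9.71 ± 2.44 CPM at 0 h (SD, n = 6, 4 and 4). The genes lower at 24 h with dox than at 0 h were Ldb3 (-2.87 ± 0.36), Myh6 (-2.79 ± 0.39), Myh3 (-2.77 ± 0.44), Myom2 (-2.16 ± 0.41), Ryr2 (-1.42 ± 0.41), Tnnt1, Actn2 and Atp2a2 (-0.39 ± 0.11), at edgeR adjusted p from 4.75e-06 to 0.00774. Ryr2 was not called without batch 2 0 h replicate 2 (-0.54, edgeR adjusted p = 0.127). Acta1 was not called without batch 1 0 h replicate 1, either batch 2 0 h library or batch 2 24 h dox replicate 2 or 4 (edgeR adjusted p from 0.0512 to 0.139). Tpm2 was not called without batch 1 24 h dox replicate 2, batch 2 0 h replicate 2 or batch 2 24 h dox replicate 4, nor was Myom1 without either batch 1 0 h library (edgeR adjusted p from 0.0541 to 0.148).

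In batch 3, cells labelled Zic2_KO were compared with wild type, both at 24 h with dox. Of 28 genes tested, 0 were called by edgeR (0.0% of all 16518 genes) and 0 by DESeq2, and 2, Myh3 and Myh6, had an unadjusted p below 0.05 (2.36% of all genes did). Myh6 was at 2.57 and 2.26 CPM in Zic2_KO libraries, against 1.09 and 1.31 CPM in wild type, at a log2 fold change of 1.01 ± 0.36 (edgeR adjusted p = 1.00). Actc1 was at 17.3 and 20.1 CPM in Zic2_KO libraries, against 5.92 and 23.0 CPM in wild type. The wild-type values lay on both sides of the Zic2_KO ones. Myl1 was at 10.3 and 6.51 CPM in Zic2_KO libraries, against 6.50 and 6.38 CPM in wild type, and Cacna1c at 28.6 and 23.0 CPM in Zic2_KO libraries, against 20.3 and 23.4 CPM in wild type. Over the 28 genes, log2 fold changes lay between -1.01 ± 0.47 (Tnni1) and 1.68 ± 0.50 (Myh3), and none of this size was called with 2 libraries in each group. The groups did not overlap for 5 of the 28 genes upward (15.6% of all genes) and 2 downward (14.5% of all genes).

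At day 4 the comparison asks how cells sorted for Flk1 and Pdgfra, surface markers of cardiovascular mesoderm, differ from cells with neither. Replicates 3 to 5 of each were compared. Of 26 genes tested, 11 were called (25.6% of all 16868 genes). Of these, 4 rose in double positive cells (9.41% of all genes) and 7 fell (16.2% of all genes). Over the 26 tested, the median log2 fold change was 0.13, beside 0.01 over all genes. The 4 were both atrial light chains Myl7 and Myl4, with Tnni1 and Cacna1c. The 7 were Tnnt1, Tnni3, Tnnc1, Myl3, Myh6, Myh7 and Myom2, which include cardiac troponin I and C and both cardiac myosin heavy chains. The groups did not overlap for 6 of the 26 genes upward (17.4% of all genes) and 9 downward (24.9% of all genes).

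Myl7, the atrial regulatory light chain, was at 59.2, 34.2, 25.9, 46.1 and 30.1 CPM in double positive replicates 1 to 5, against 2.49, 1.03 and 1.54 CPM in double negative and 1.75 and 3.34 CPM in bulk libraries. Every double positive library was above all others at day 4 and above every library at other stages of this series, of which the highest had 5.91 CPM. The log2 fold change against double negative cells was 4.36 ± 0.35 (edgeR adjusted p = 0.000246). Myl4 was at 3.29 to 6.96 CPM in double positive cells (median 5.03), against 0.513, 0.396 and 0.154 CPM in double negative and 0.462 and 0.497 CPM in bulk libraries, at 3.94 ± 0.39 against double negative cells (edgeR adjusted p = 0.000507).

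Tnni1 was at 3.17, 5.84, 7.12, 2.54 and 4.70 CPM in double positive libraries, against 0.146, 0.0791 and 0.0768 CPM in double negative and 0.193 and 0.199 CPM in bulk libraries. It had 4 counts in the 3 double negative libraries (5.45 ± 0.58, edgeR adjusted p = 0.000678). Cacna1c was at 27.7, 29.7, 29.5, 30.1 and 39.7 CPM in double positive libraries, against 2.05, 2.37 and 1.77 CPM in double negative and 2.46 and 3.64 CPM in bulk libraries. With 4.03 ± 0.20 it had the lowest adjusted p of the 26 genes (edgeR, 6.92e-05).

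Tnni3 showed the reverse of Tnni1. It was at 2.72, 3.32, 3.24, 1.20 and 3.46 CPM in double positive libraries, against 16.2, 14.5 and 15.4 CPM in double negative and 9.63 and 10.6 CPM in bulk libraries, at a log2 fold change of -2.52 against double negative cells. Tnnc1 was at 2.49, 3.42, 3.16, 2.24 and 2.56 CPM in double positive libraries, against 14.6, 11.2 and 9.21 CPM in double negative and 1.62 and 1.91 CPM in bulk libraries (-2.11 ± 0.23, edgeR adjusted p = 0.000771). The double negative libraries did not overlap with the others for either gene. For Tnnc1 the order was double negative, double positive, bulk, and the last pair also did not overlap. The double negative and bulk libraries here are of different replicate sets.

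Myh7 was at 0.340, 0.755, 0.870, 0.224 and 2.06 CPM in double positive libraries, against 21.2, 8.23 and 24.0 CPM in double negative and 0.462 and 0.378 CPM in bulk libraries. Its only levels above 3 CPM in the series were thus those in double negative cells (-4.06 ± 0.66 for double positive against double negative, edgeR adjusted p = 0.00457), and -4.99 without double positive replicate 5. Myh6 was at 0.0748 to 1.24 CPM in double positive libraries, against 4.69, 2.14 and 5.30 CPM in double negative libraries (-3.02 ± 0.76, edgeR adjusted p = 0.0251). Without double negative replicate 3 or 5, or double positive replicate 3, Myh6 was not called (-2.92, -2.77 and -2.6, edgeR adjusted p from 0.0807 to 0.086), and without double positive replicate 5 its value was -4.99. Tnnt1, slow skeletal troponin T, averaged 0.674 ± 0.260 CPM in double positive replicates 3 to 5 and 6.34 ± 1.87 CPM in double negative ones (-3.17 ± 0.36, edgeR adjusted p = 0.000874). Myom2 had 2 counts in double positive replicates 3 to 5 and 51 in double negative ones (-4.37 ± 0.66, edgeR adjusted p = 0.00275). Myl3, the ventricular and slow essential light chain, fell by 1.36 on the log2 scale, and was not called without double negative replicate 3 or 5 or double positive replicate 5 (-1.21, -1.38 and -1.22, edgeR adjusted p from 0.0642 to 0.0847).

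Markers of other cell types moved with this contrast. The list of 8 endoderm genes summed to 162.2 to 232 CPM in double positive and 901.3 to 1021 CPM in double negative libraries, with only Afp without a count in double positive ones. The list of 8 neuroectoderm genes summed to 81.0 to 153.2 CPM in double positive and 372.2 to 439.4 CPM in double negative libraries, with Hes5 and Neurog2 without a count in double positive ones, and a list of 19 cardiac transcription factors to 965.3 to 1315 CPM in double positive and 344.4 to 406.9 CPM in double negative libraries. Among tested genes, 1 endoderm gene was called higher in double positive cells and 5 lower, and 0 neuroectoderm genes higher and 3 lower. Of the cardiac transcription factors 8 were called higher and 1 lower. The part of these cell types in the 7 genes that fell was not tested. Skeletal muscle regulators, 10 genes, summed to 61.4 to 90.2 CPM in double positive and 91.5 to 110.4 CPM in double negative libraries, with Myog and Mymk without a count in double negative ones.

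Of the genes not called between the sorts, Actc1 was at 3.13 to 16.0 CPM in double positive libraries, against 3.44, 10.8 and 0.921 CPM in double negative ones, with wide overlap (0.10 ± 0.75, edgeR adjusted p = 0.941). Ttn (0.93 ± 0.56), Ryr2 (0.70 ± 0.39), Atp2a2 (0.25 ± 0.23), Des (0.75 ± 0.33), Acta1 (-0.74 ± 0.50) and Fhod3 (0.82 ± 0.27) were not called, at edgeR adjusted p from 0.0595 to 0.489. The tests above did not use replicate numbers as blocks. The labels state no pairing, but same-numbered libraries of the 2 sorts deviated together. With the numbers as blocks, Fhod3 (0.82, edgeR adjusted p = 0.00238) and Atp2a2 (0.24, edgeR adjusted p = 0.0077) were called higher in double positive cells. Then 13 of the 26 genes and 7254 of all genes were called, against 11 and 4318 without blocks. Tnnt2, with 0.453 to 2.01 CPM in double positive and 0.0768 to 0.237 CPM in double negative libraries, did not pass the filter on low counts. Of 19 tested genes in the list of other sarcomere genes, 3 rose and 5 fell. Among those that rose was Pdlim3, an actinin-binding Z-disc protein, with a log2 fold change of 2.29.

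**Figure D3:**
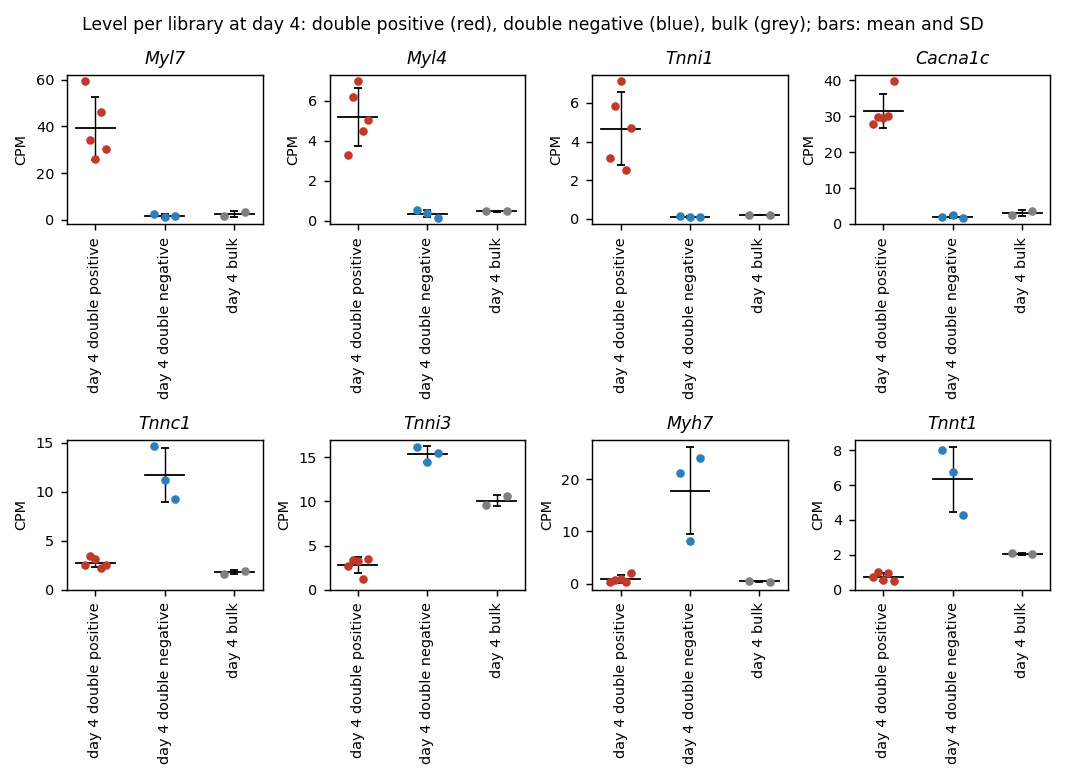
Level in CPM (vertical axis) of 8 genes in each day 4 library (points) of double positive, double negative and bulk cells, with the group mean and SD (black). The upper row shows 4 genes in which every double positive library is above all others, and the lower row 4 genes in which every double negative library is above all others.

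Against unsorted day 4 cells, with replicates 1 and 2 of each, 20 of 31 genes were called (51.7% of all 19350 genes), of which 12 rose in double positive cells (22.9% of all genes) and 8 fell (28.8% of all genes). Over the 31 tested, the median log2 fold change was 0.15, beside -0.01 over all genes. The largest rises were of Tnni1 (4.66 ± 0.40), Myl7 (4.36 ± 0.46), Myl1 (4.19 ± 0.45), Tnnt2 (3.94 ± 0.84), Tnnt3 (3.61 ± 0.50), Myl4 (3.46 ± 0.36) and Cacna1c (3.39 ± 0.21), at edgeR adjusted p from 0.000129 to 0.0139. Myl1 was at 1.42 and 0.956 CPM in these double positive libraries and at 0.165 to 0.237 CPM in replicates 3 to 5, against 0.0578 and 0.0796 CPM in bulk libraries. Tnnt3 was at 3.97 and 6.19 CPM in double positive libraries, against 0.231 and 0.696 CPM in bulk libraries, and was also at 2.61 to 3.61 CPM in double negative ones. Ryr2 (1.63), Fhod3 (1.25 ± 0.19), Tnnc1 (0.91), Neb and Myl3 rose too. Myom2 (-2.78 ± 0.46), Ldb3, Myh6, Tnni3 (-1.58), Tnnt1, Actn2, Tpm2 and Actn3 fell.

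The marker lists moved here too. Over all 5 double positive libraries, the pluripotency genes summed to 104 to 212.9 CPM, against 856.9 to 933.7 CPM in bulk libraries, the endoderm genes to 162.2 to 232 CPM, against 363.3 to 441.9 CPM in bulk libraries, and the cardiac transcription factors to 965.3 to 1315 CPM, against 332.4 to 412 CPM in bulk libraries. In the test with replicates 1 and 2, 1 pluripotency gene was called higher and 8 lower, and 1 endoderm gene higher and 6 lower. Of the cardiac transcription factors 11 were called higher and 2 lower. The part of these lists in the 20 calls was not tested. Gene totals were 17644613 and 19874949 in the double positive and 50260410 and 51940589 in the bulk libraries, and 12 of the 31 genes (51.2% of all genes) had every double positive value below every bulk value, with 13 the other way (27.7% of all genes). Over the alternatives, 10 of the 20 calls were never lost: Tnnt3, Tnni1, Tnni3, Tpm2, Myl1, Myl4, Myl7, Fhod3, Myom2 and Cacna1c. Those of Tnnt1, Tnnc1, Neb, Myl3, Myh6, Actn2, Actn3 and Ryr2 were lost without either bulk library and those of Tnnt2 and Ldb3 without bulk replicate 1, at edgeR adjusted p from 0.0555 to 0.301. Without bulk replicate 1 or 2, 10 and 12 genes were called in all. Without double positive replicate 2, Tnnc1, Myl3 and Ryr2 (0.81) were not called (edgeR adjusted p = 0.0535, 0.142 and 0.0529), and without double positive replicate 1, Actn2 was not (edgeR adjusted p = 0.0542). Tnnt2 had a log2 fold change of 2.5 without double positive replicate 2 and 4.6 without replicate 1, and Tnnt3 of 3.01 and 4.58 without bulk replicates 1 and 2.

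**Figure D4:**
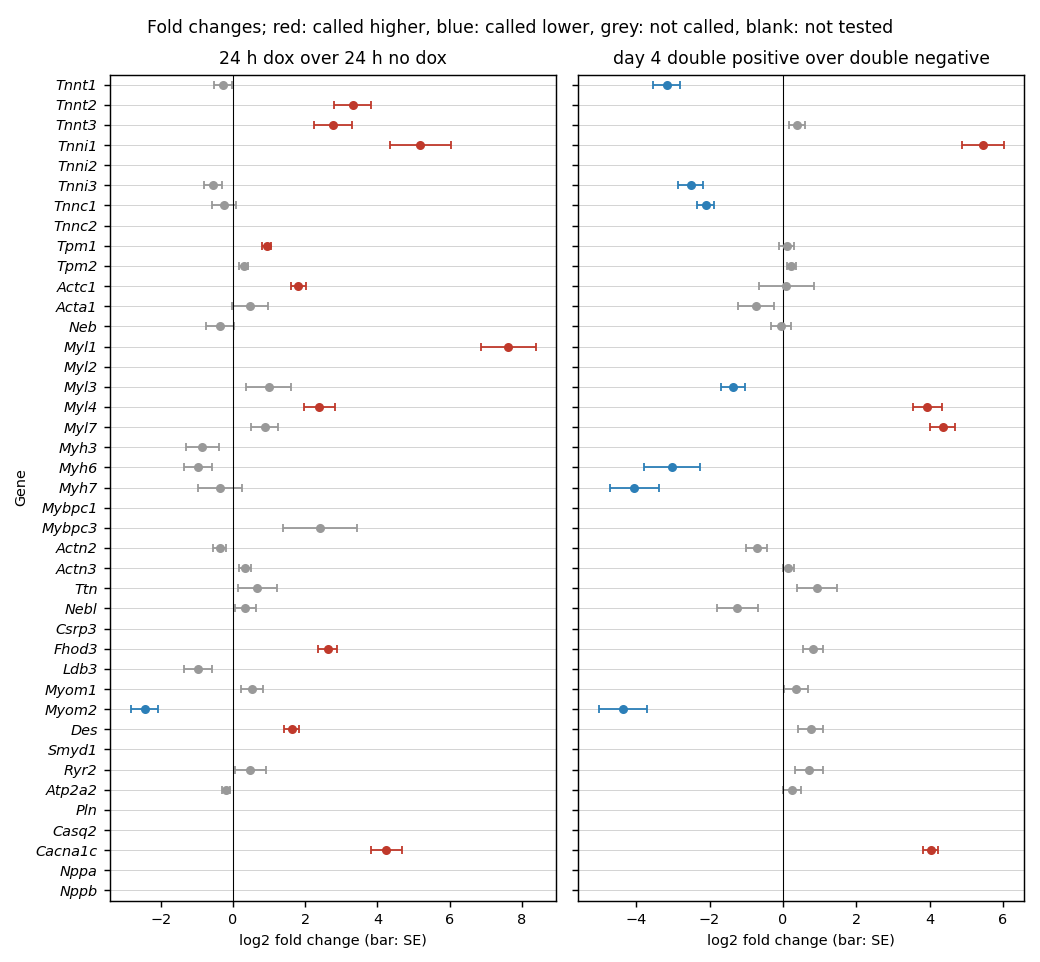
Log2 fold change (horizontal axis) with its standard error for each of the 41 genes (rows) for 24 h dox over no dox (left) and for double positive over double negative cells (right), from edgeR. Tnni1, Myl4 and Cacna1c are called higher in both panels and Myom2 lower in both, while Actc1, Fhod3, Des, Tpm1 and Tnnt3 are called only on the left and Myl7, Tnni3, Tnnc1, Myh6 and Myh7 only on the right. Genes such as Myl1 and Tnnt2 that were not tested on the right are blank there, and whether the effects differ between the panels was not tested.

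Dox given to cells in 2i called 0 of 32 genes (0.0% of all 18534 genes), with 1, Myl2, at an unadjusted p below 0.05 (2.08% of all genes) and 0 called by DESeq2. Myl1 had 0 counts in 3 of the 4 libraries and 0.0600 CPM in the other, Fhod3 was at 5.30 and 6.36 CPM with dox, against 4.29 and 5.82 CPM without dox, and Cacna1c at 0.520 and 1.14 CPM with dox, against 0.364 and 0.919 CPM without dox. Mesp1 was at 85.4 and 119 CPM with dox, against 0.613 and 1.09 CPM without dox, in the same libraries. Mesp1 was not called either, so this test, with 2 libraries in each group, missed a large change. Its 0 calls do not show equal levels. Log2 fold changes lay between -0.50 ± 1.06 (Casq2) and 2.02 ± 0.68 (Myl2, the ventricular regulatory light chain). Those of Cacna1c (0.30 ± 0.74) and Fhod3 (0.16 ± 0.31) were not tested against their values in differentiating cells at 24 h. The groups did not overlap for 5 of the 32 genes upward (16.5% of all genes) and 0 downward (8.23% of all genes).

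Several large sarcomere genes were at higher levels in the 2i libraries than in any other, whether or not dox was given. Of 33 genes with enough signal to be counted (a mean of at least 1 CPM in 2i or over all libraries), 8 had every one of the 4 2i libraries above every one of the 32 others (15% of all 17847 genes), and 3 had every one below (9.71% of all genes). This rule lets in genes through a high level in 2i, and gives no such route for any other group. Of the 8, Mybpc1, Mybpc3 and Nppb were counted only through their 2i mean. The mean over all libraries itself includes those of 2i, and without them Smyd1 and Myom2 would not have reached 1 CPM either. The count of genes above is therefore no support for a difference. The labels give no batch for the 2i libraries, so culture and any batch difference cannot be told apart, and no test was made. Ttn was at 84.2 and 47.1 CPM with dox and 67.9 and 47.5 CPM without dox, against 0.230 to 10.04 CPM (median 1.36) in the 32 others. Its transcript is so long that this came to 1.53 and 1.31 TPM as group means. The highest of the others was batch 2 0 h replicate 2, and the next was at 4.51 CPM.

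Ryr2 was at 23.3 and 19.0 CPM with dox and 25.5 and 22.7 CPM without dox, against 0.322 to 8.80 CPM (median 1.71) in the others. Smyd1, a muscle methyltransferase needed for sarcomere assembly in the heart, was at 15.5 and 14.3 CPM with dox and 19.0 and 15 CPM without dox, against 0.0261 to 0.772 CPM in the others. Myl4 was at 18 and 21.7 CPM with dox and 21.1 and 28.5 CPM without dox, above even the double positive cells, whose highest was 6.96 CPM. Mybpc3, cardiac myosin-binding protein C, was at 4.52 to 8.94 CPM in 2i, against at most 1.38 CPM elsewhere, and Myom2 at 4.55 to 9.51 CPM in 2i, against at most 1.84 CPM elsewhere. Mybpc1, its slow skeletal relative, at 1.07 to 1.75 CPM, and Nppb, the B-type natriuretic peptide, at 0.780 to 1.92 CPM, were low but above all others.

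Below all others in 2i were Tpm1, Tpm2 and Actc1. Tpm1 was at 96.4 and 136.6 CPM with dox and 89.96 and 138.7 CPM without dox, against 155.5 to 628.1 CPM in the others. Actc1 was at 0.156 and 0.180 CPM with dox and 0.655 and 0.0511 CPM without dox, against 0.836 to 23.5 CPM in the others. Tpm2, beta-tropomyosin, was at 7.95 to 23.5 CPM in 2i, against at least 23.8 CPM in the others. The list of 9 pluripotency genes summed to 5850 to 6537 CPM with dox and 5893 to 6000 CPM without dox in 2i, against 104 to 1285 CPM in the others. The list of 19 cardiac transcription factors summed to 132.3 to 161.8 CPM with dox and 112.9 to 158.8 CPM without dox in 2i, against 113.8 to 1315 CPM in the others. Their part in the levels above was not tested.

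**Figure D5:**
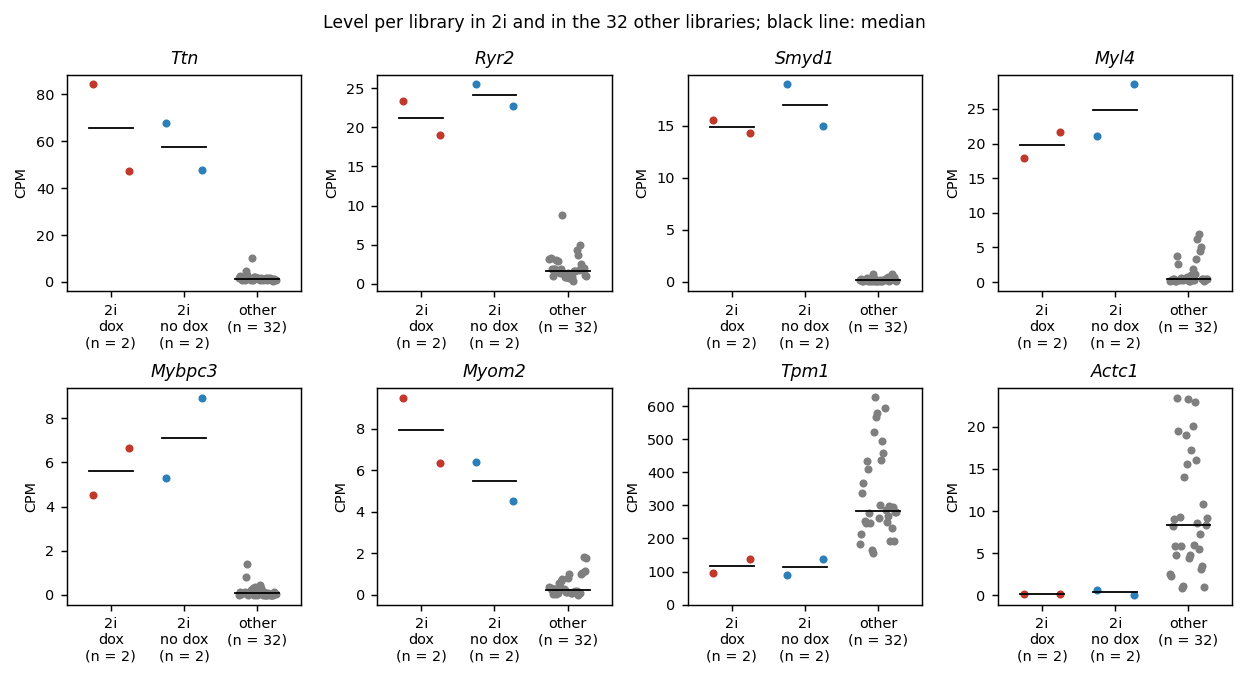
Level in CPM (vertical axis) of 8 genes in 2i with dox, in 2i without dox and in the 32 other libraries (points; black line, median). In 6 panels every 2i library is above all others, by the widest margin for Smyd1 and Ttn, and for Tpm1 and Actc1 every 2i library is below.

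Several of the 41 lie close to each other in the mouse genome (GRCm38, GENCODE M21 annotation), and their changes can be set side by side. Tnnt1 (chr7:4504570-4516382) and Tnni3 (chr7:4518305-4524229) are 1922 bases apart on the minus strand, and both fell in double positive against double negative cells, with log2 fold changes of -3.17 and -2.52. Myh6 (chr14:54941921-54966927) and Myh7 (chr14:54970684-54994626) are 3756 bases apart on the minus strand, and both fell in that comparison, while at 0 h Myh6 was at 6.40 to 12.2 CPM and Myh7 at 0.304 to 0.927 CPM. Tnni1 (chr1:135779434-135810989) and Tnnt2 (chr1:135836354-135852260) are 25364 bases apart on the plus strand with 1 protein-coding gene between them, and both rose with dox at 24 h. The other pairs, Tnni2 with Tnnt3 on chromosome 7, which also have 1 protein-coding gene between them, and Nppb with Nppa on chromosome 4, include a gene that never passed the filter on low counts. No test was made of whether they move together.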

How the data were processed

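The authors deposited raw read counts per gene for each of the 36 libraries, in a format ending with summary entries. The submitters' processing notes name Trimmomatic, STAR, HTSeq, DESeq2 and the mm10 genome, without versions; how strand was used, and which annotation, is not given in the sources used here. Of the uniquely placed reads, 3.52% to 10.1% matched no gene and 3.77% to 5.12% were ambiguous; these entries stayed out of totals and tests. Replicates differed by at least 4.92 times the counting variance, so no library was a copy of another.

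Counts were tested with edgeR 4.0.16 (R 4.3.3, limma 3.58.1): TMM normalization, the default filter on low counts by group, a robust quasi-likelihood F test, 2-sided, and Benjamini-Hochberg adjustment over all genes tested. Batches 1 and 2 (18 libraries) were fitted together with a batch term, and batch 3, the 2i set and each pair of day 4 groups separately. CPM values divide by the gene total without TMM factors; TPM uses merged exon lengths of GENCODE M21 (GRCm38). The procedure was tested on simulated data. Alternatives were RLE normalization, DESeq2 1.42.0, no filter, replicate blocks, leaving out each library, single batches and no batch term.

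Every gene called in a comparison could be named, with full statistics for at most 8 with the largest absolute log2 fold change plus a set of genes described throughout. The 41 genes, the other lists and the tests were chosen with earlier results of these data known. Same-numbered double positive and double negative libraries deviated together (correlations of 0.527, 0.605 and 0.629 in 3 pairs). Their numbers were therefore taken to pair them in the alternative with blocks, but not in the main test, and the labels do not state a pairing.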

Additional observations from a re-analysis of the deposited data

Results flagged for a closer look

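In 5 of 44 groups of 4 or 5 libraries with a mean of at least 1 CPM, 1 library lay far from the others of its group; chance alone gives this in about 1 in 20 groups. Batch 2 24 h dox replicate 1 was such a library for 3 genes: Tnni1 at 7.56 CPM with the next at 0.972 CPM, Fhod3 at 47.1 CPM with the next at 26.1 CPM, and Ttn at 0.880 CPM, below the others, which began at 1.77 CPM. Mesp1 was also highest there. Without it, the dox effects at 24 h were 4.89 for Tnni1, 2.5 for Fhod3, 4.06 for Cacna1c and 7.41 for Myl1 on the log2 scale, all still called by edgeR. In double positive cells, Actn3 was at 8.86 CPM in replicate 2 with the next at 10.7 CPM, and Cacna1c at 39.7 CPM in replicate 5 with the next at 30.1 CPM.

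The dox effect at 24 h differed from that at 12 h for Nebl (2.91, edgeR adjusted p = 0.0342) and Fhod3 (2.91, edgeR adjusted p = 0.0186), with the dependence on single libraries given above.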

How the results depend on the processing

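Of 1199 values of called genes under the alternatives, 1065 stayed past the threshold, 134 did not and 0 changed sign. Counts of the 41 genes called moved by over 1.5 times as follows. Without the filter, 6 rather than 3 were called at 12 h, 4 rather than 2 for the effect at 24 h against 12 h, and 2 rather than 0 for batch 2 against batch 1. In batch 1 alone, 5 were called at 12 h. At 24 h against 0 h without dox, 2 were called in batch 2 alone and 7 without a batch term, rather than 15. Leaving out single libraries gave 0 to 3 calls at 12 h, 0 to 2 for 24 h against 12 h and 10 to 22 for double positive against bulk. It gave 11 to 14 at 24 h with dox against without, 11 to 15 for 24 h against 0 h without dox, 22 to 25 with dox, 9 to 14 for double positive against double negative, and 0 to 0 in batch 3, in 2i and for batch 2 against batch 1.

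Other than between the sorted cells, the labels give replicates only a shared number and each batch has 2 such pairs per comparison, too few to take the numbers as pairing. Correlations of same-numbered libraries were 0.119 to 0.864 in batch 1, -0.207 to 0.422 in batch 2, 0.347 in batch 3, 0.811 in 2i and -0.204 for double positive with bulk. With a replicate block, 14 rather than 11 genes were called at 24 h (adding Mybpc3, Tnni3 and Myh6), 4 at 12 h (adding Myl1), 22 for 24 h dox against 0 h (without Ryr2 and Acta1), 1 rather than 0 in 2i (Myl2), and 19 for double positive against bulk (without Actn2). A block with crossed numbers, chosen after seeing the data, gave 19 as well. For the sorted cells the block changed no calls but those of Fhod3 and Atp2a2.

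Over all genes, the number called at 24 h was 5584, against 3118 in batch 2 alone. At 12 h it was 1052, against 1628 without the filter, 1590 in batch 1 alone and 423 to 693 without single libraries. For the effect at 24 h against 12 h it was 97, against 498 by DESeq2, 873 without the filter, 309 with the block, 638 in batch 1 alone and 1 to 249 without single libraries. For batch 2 against batch 1 it was 117, against 255 by DESeq2, 514 without the filter, 443 with the block and 22 to 237 without single libraries. Without dox it was 4675, against 658 in batch 2 alone and 2089 without a batch term. For 24 h dox against 0 h it was 9789, against 5957 in batch 2 alone. In batch 3 it was 0, against 5 by DESeq2 and 0 to 9 without single libraries. In 2i it was 0, against 47 by DESeq2, 18 without the filter, 633 with the block and 0 to 2 without single libraries. For double positive against double negative it was 4318, against 7254 with the block, and for double positive against bulk it was 10010, against 4903 to 12394 without single libraries. The cause of these shifts was not tested. At these depths values under 1 CPM rested on few counts, as for Myom2 and Tnnt3.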
